A study of Mus musculus with 2 samples.

Results

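MicroRNA hairpins were examined for Mbnl2 HITS-CLIP tags in quadriceps muscle. The members were all 1577 genes of type miRNA in the GENCODE vM1 annotation of mm9, out of 37310 annotated genes. They comprised 1409 hairpins that overlapped no exon of another gene on their strand and 168 that did, which were kept apart because a tag there can come from the host transcript. Of the 1577 hairpins, 412 matched an entry of the RefSeq microRNA table (GRCm38.p6) by symbol, 140 had a microRNA symbol without an entry and 1025 had only the name of the sequenced clone. Tags came from WT mice and from *Mbnl1* KO mice (Mbnl1-/-, a germline knockout), both of 15 to 16 weeks and labelled C57BL/6, with 3 mice per genotype merged into 1 table. In this assay RNA is crosslinked to protein in powdered tissue, trimmed with RNase A at 38.6 or 0.0386 U/ml and immunoprecipitated with an antibody to Mbnl2, and each short RNA fragment that is sequenced is a tag. The tables do not tell the RNase concentrations apart, and they hold no library without the antibody.

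A microRNA is cut from a longer transcript in steps. Drosha releases a hairpin in the nucleus, Dicer then removes the terminal loop, and a strand of the remaining duplex, the mature microRNA, guides Argonaute to its targets through its seed. Muscleblind proteins bind YGCY motifs, where Y is a pyrimidine, and MBNL1 is known to bind a UGC in the loop of the mir-1 precursor. In skeletal muscle mir-1, mir-133 and mir-206 are the microRNAs best known for their abundance and their part in myogenesis, and the let-7 family acts on cell growth and timing in many tissues.

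There were 343554 tags in WT, built from 5176203 reads, and 476543 in *Mbnl1* KO, built from 50329234. Tags in each table carried 1 of 3 colours, and in the *Mbnl1* KO table the number of tags per colour equalled that of its 3 replicates in the study's tag summary. The colours of the WT table were taken as its 3 replicates by analogy. On this reading WT replicates 1 to 3 held 47008, 139576 and 156970 tags and *Mbnl1* KO replicates 250572, 88768 and 137203. The *Mbnl1* KO table further consisted of 2 sorted passes of 232299 and 244244 tags, whose meaning the sources used here do not give, while the WT table was a single pass. Single-base tags, in which 70% or more of the reference sequence is 1 base, made up 43.3% of WT and 16.8% of *Mbnl1* KO tags, so every ratio scaled to all tags moves with them. Within a replicate and pass no pair of tags shared a 5′ end. A mature microRNA with a fixed 5′ end can therefore give few tags however many reads it has. With 2 passes against 1, such an end can give 2 tags per *Mbnl1* KO replicate but only 1 per WT replicate. Ratios at fixed ends carry this difference between the genotypes. Reads are given beside the tags of the main hairpins. With 3 replicates against 3 an exact permutation test cannot go below p = 0.10, so no test between genotypes was made. Ratios below are *Mbnl1* KO over WT tags per 1000000 tags of the table, with exact Clopper-Pearson 95% intervals that cover counting error only. Tags of muscle mRNAs were plentiful (424 WT and 1519 *Mbnl1* KO at Ttn, 116 and 367 at Myh4), whereas the liver genes Alb and Apoa1 had at most 2 and the heart gene Nppa had 0. Other markers had some tags, 4 and 3 at the heart gene Myh6, 2 and 2 at Snap25 and 29 and 44 at Syt1, both known from neurons, and 0 and 1 at the glial gene Gfap. The lowest of the 6 muscle mRNAs, Ckm, had 32 and 142.

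The sequences below are the ones on which the results turn. The let-7a-1 hairpin is at chr13:48633548-48633641 on the minus strand of mm9 and the mir-133b hairpin at chr1:20672850-20672968 on the plus strand, and neither overlapped another annotated gene on its strand. In each hairpin the capitals mark the positions covered by at least 50% as many tags as the best covered position.
Mirlet7a-1: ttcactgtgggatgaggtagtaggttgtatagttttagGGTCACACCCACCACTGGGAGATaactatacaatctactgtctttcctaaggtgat
Mir133b: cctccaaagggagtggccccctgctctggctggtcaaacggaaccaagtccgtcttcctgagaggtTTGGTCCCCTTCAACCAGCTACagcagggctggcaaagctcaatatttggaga
The mature sequences of RefSeq, with the seed (bases 2 to 8) in capitals, show where the microRNAs lie in these hairpins and which microRNAs the other tags start at.
mmu-let-7a-5p: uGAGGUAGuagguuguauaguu
mmu-let-7a-1-3p: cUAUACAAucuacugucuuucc
mmu-miR-133b-3p: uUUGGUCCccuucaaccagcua
mmu-miR-30a-5p: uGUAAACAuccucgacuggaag
mmu-miR-27a-3p: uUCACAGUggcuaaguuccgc
mmu-miR-34a-5p: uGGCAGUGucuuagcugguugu
The capitals of mir-133b run from the second base of miR-133b-3p to 1 nt past its end, and those of let-7a-1 fall between both mature strands, in the terminal loop.

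Few hairpins carried tags. With both genotypes pooled, 86 of the 1577 hairpins (5.45%) had at least 1 tag, 63 of 1409 outside exons and 23 of 168 inside them. Of the 86, 33 rested on a single tag and 19 had 5 or more. The share with tags was 7.28% among hairpins with a RefSeq entry, 10.7% among those with a symbol but no entry and 4.00% among clone-named ones. Tags on all hairpins numbered 122 in WT and 412 in *Mbnl1* KO muscle, 0.0355% and 0.0865% of the tables. On the opposite strand of the same hairpins there were 13 and 48 tags, nearly all at clone-named hairpins (12 and 42).

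Outside exons the hairpins held 112 WT and 348 *Mbnl1* KO tags. Scaled, WT replicates 1 to 3 had 298, 236 and 414 tags per 1000000 tags and *Mbnl1* KO replicates 714, 800 and 714. The genotypes did not overlap, as the lowest *Mbnl1* KO replicate lay above the highest WT replicate. The pooled ratio was 2.24 (1.81 to 2.80), and the median over the 10837 other genes with at least 5 tags was 1.60. That median was computed on all tags only and is no reference for the settings that follow. The pooled ratio was 1.58 (1.27 to 1.98) without single-base tags and 1.27 (0.947 to 1.72) among tags of at least 2 reads, where its interval includes 1. Counted in reads, 8065 in WT and 72797 in *Mbnl1* KO, it was 0.928, so the direction turned. Of the *Mbnl1* KO reads 39760 were at let-7a-1, and without that hairpin the ratio of reads was 0.426. Hairpins with a RefSeq entry had 16 WT and 72 *Mbnl1* KO tags (ratio 3.24, 1.87 to 5.98), those with a symbol but no entry 36 and 110 (2.20, 1.50 to 3.30) and clone-named ones 60 and 166 (1.99, 1.48 to 2.73). Most *Mbnl1* KO tags at hairpins with a symbol but no entry were at 57 nt hairpins of nearly 1 sequence, described below. These were mmu-mir-689-2 (2 and 21), mmu-mir-2134-2 (5 and 17) and the copies of mmu-mir-2134-4 (5 and 15, 3 and 15). The ratio of RefSeq-matched hairpins rested on the second pass of the *Mbnl1* KO table, which gave 5.45 (3.11 to 10.1), while the first pass alone gave 0.924 (0.375 to 2.17). Scaled to all reads, the ratio of hairpins with a symbol but no entry was 0.329 and turned as well.

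The muscle microRNAs were represented mainly by mir-133. Of 11 muscle hairpins looked for, 10 were annotated by name and 5 carried tags, 21 in WT and 50 in *Mbnl1* KO muscle (ratio 1.72, 1.01 to 3.01). With the first pass of the *Mbnl1* KO table alone the ratio was 1.13 (0.550 to 2.27), and with the second 2.28 (1.28 to 4.13). All 71 tags lay on the 3′ arm, which holds the abundant strand of these microRNAs, and 68 were 20 to 24 nt long. Mir133a-2 (chr2:180133084-180133187, plus strand) had 1, 3 and 3 tags in the WT replicates and 9, 4 and 6 in the *Mbnl1* KO replicates. Its homologue Mir133a-1, on chromosome 18, had 1, 3 and 4 in WT and 7, 3 and 5 in *Mbnl1* KO. Each tag of the pair matched exactly 2 places in mm9, so their sum is the sound value, 15 WT and 34 *Mbnl1* KO tags (ratio 1.63, 0.866 to 3.23). In scaled counts both hairpins were higher in each *Mbnl1* KO replicate than in any WT replicate. The intervals of the ratios include 1. In reads the direction turned. The pair had 3645 reads in WT and 14880 in the larger *Mbnl1* KO library, which was 704 and 296 per 1000000 reads, a ratio of 0.420. The whole muscle list had a ratio of 0.306 in reads.

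At Mir133b, transcribed beside mir-206, there were 0, 1 and 3 tags in the WT replicates and 5, 2 and 3 in the *Mbnl1* KO replicates. Scaled to tags per 1000000 this was 0, 7.16 and 19.1 in WT and 19.95, 22.5 and 21.9 in *Mbnl1* KO, and the ratio was 1.80 (0.520 to 7.87). In reads the direction turned, with 7 in WT and 41 in *Mbnl1* KO, or 1.35 and 0.815 per 1000000 reads (ratio 0.602). The order of these replicates carries no weight, because tags began at only 3 positions and WT replicate 3 had a tag at each, as many as *Mbnl1* KO replicate 3 and more than replicate 2. All 14 tags matched mm9 once and ended at position 88 of the hairpin, 1 nt after the end of miR-133b-3p (positions 66 to 87). Their 5′ ends lay at positions 66 to 68, 12 of them within 1 nt of the mature 5′ end. Mir1a-1 (chr2:180123753-180123829, plus strand) had 2 tags, both in WT replicate 3, and 5 in *Mbnl1* KO, 2 in replicate 1 and 3 in replicate 3 (ratio 1.80, 0.295 to 18.9). Its tags spanned positions 48 to 70 on the 3′ arm, all ended at position 70, and each matched 2 places, the other of which lies opposite Mir1b on chromosome 18. There 1 WT and 5 *Mbnl1* KO tags were placed, of which 1 and 4 held the shortest Mir1a-1 tag. The sum over both places was 3 WT and 10 *Mbnl1* KO tags (ratio 2.40, 0.619 to 13.6). In reads of Mir1a-1 the order of the genotypes was the reverse, with 1563 reads in WT and 596 in *Mbnl1* KO muscle, of which 1562 belonged to a single WT tag. Mir206 had 1 tag, in *Mbnl1* KO muscle, at the first base of miR-206-3p. Mir1b, Mir208a, Mir208b, Mir499 and Mir486 had no tag on their own strand in either table. For a single hairpin 0 tags allow up to 8.73 tags per 1000000 in the WT table and 6.30 in the *Mbnl1* KO table (3 tags).

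**Figure D1:**
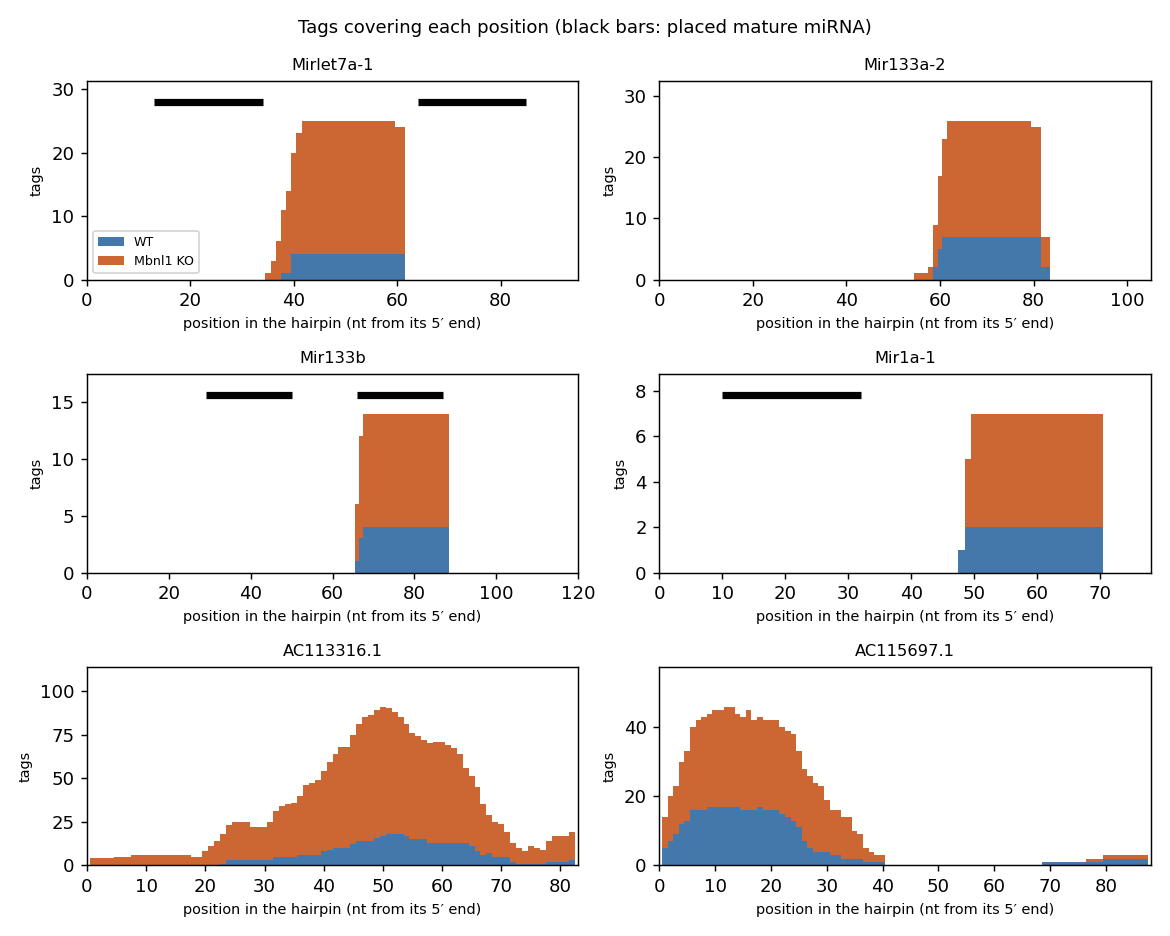
Number of tags covering each position of 6 hairpins, counted in nt from the hairpin's 5′ end, with WT (blue) and Mbnl1 KO tags (orange) stacked and the placed RefSeq mature sequences as black bars (none is placed for Mir133a-2 and the clone-named hairpins, and only the 5p strand for Mir1a-1). Tags of Mirlet7a-1 lie between the bars at positions 35 to 61, tags of Mir133b lie under the second bar, and those of AC113316.1 and AC115697.1 have no common end.

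The let-7a-1 hairpin was the only one of the 16 tagged hairpins outside exons with both mature strands placed whose tags lay in the terminal loop. It had 4 WT tags, 2, 1 and 1 in replicates 1 to 3, and 21 *Mbnl1* KO tags, 8, 5 and 8. Per 1000000 tags these were 42.5, 7.16 and 6.37 in WT and 31.9, 56.3 and 58.3 in *Mbnl1* KO. WT replicate 1, the smallest library, lay above *Mbnl1* KO replicate 1, so the replicates overlapped. The ratio was 3.78 (1.28 to 15.2). It was 6.53 (1.60 to 57.5) without WT replicate 1, and without WT replicate 2 or 3 the interval included 1 (3.00, 0.895 to 15.7, and 2.74, 0.818 to 14.4). In reads the hairpin had 84 in WT and 39760 in *Mbnl1* KO muscle, the latter spread unevenly as 8660, 33 and 31067 over the replicates. Per 1000000 reads this was 16.2 and 790.0.

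All 25 tags of let-7a-1 lay between position 35 and position 61, in the 29 nt between let-7a-5p (positions 13 to 34) and let-7a-1-3p (positions 64 to 85). Their 5′ ends were spread over positions 35 to 42, whereas 24 of the 25 ended at position 61, with 2 bases between their end and the first base of the 3p strand. The remaining tag ended at position 59. Lengths ran from 20 to 27 nt, and every tag matched mm9 once. The tag with the most reads, 17345 in *Mbnl1* KO replicate 3, covered positions 39 to 61, the capitals of the sequence above. All 4 WT tags ended at position 61 as well. No tag lay on the mature strands or in the flanks of the hairpin. Of the 21 *Mbnl1* KO tags, 20 were in the second pass of the table and 1 in the first. With the first pass alone the ratio was 0.370 (0.00751 to 3.74) and the direction between genotypes turned.

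The other let-7 hairpins were nearly without tags. Of 12 family members looked for, 9 were annotated by name and 2 had tags. Besides let-7a-1 this was Mirlet7f-2, with 1 *Mbnl1* KO tag at the 5′ end of its 5p strand. That tag matched 2 places in mm9.

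At other hairpins with both mature strands placed, most tags began where a mature strand begins. Outside exons, 75 tags fell on hairpins with both mature strands placed. Without let-7a-1 there were 50, of which 44 (88.0%, 75.7 to 95.5) lay mostly on a mature strand and 42 (84.0%, 70.9 to 92.8) started within 1 nt of its 5′ end. By genotype the latter share was 6 of 8 tags in WT and 36 of 42 in *Mbnl1* KO muscle. With let-7a-1 included it was 6 of 12 in WT (21.1% to 78.9%) and 36 of 63 in *Mbnl1* KO (57.1%, 44.0 to 69.5). Of the 6 tags off the mature strands 5 were at Mir337, an imprinted microRNA of the Dlk1-Dio3 region. These tags, 1 in WT and 4 in *Mbnl1* KO muscle, began upstream of the annotated hairpin and all ended at its position 8, before the 5p strand at positions 29 to 50. Hairpins with 1 placed strand are not in these shares. Among them tags of Mir1a-1 (7), Mir23b (3), Mir692-1 (2) and Mir1906-2 (1) outside exons, and of Mir1906-1 (2) and Mir686 (1) and most of mmu-mir-1902 in exons, did not begin within 1 nt of the placed 5′ end. Those with under 5 tags were named after their values were seen. At Mir1a-1 and Mir23b only the 5p strand was placed and the tags lay on the 3′ arm.

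Mir30a, of a family abundant in muscle and heart, had 1, 1 and 0 tags in the WT replicates and 2, 1 and 1 in the *Mbnl1* KO replicates (ratio 1.44, 0.207 to 15.9). All 6 began at position 6, the first base of miR-30a-5p. Mir30c-1 and Mir30c-2 shared the seed of Mir30a and had 2 and 1 *Mbnl1* KO tags, also at the mature start and each matching 2 places in mm9. Mir30b had 3 tags with 1670 reads in WT replicate 3 and 1 tag with 1 read in *Mbnl1* KO muscle. Over the 6 mir-30 hairpins there were 7 WT and 9 *Mbnl1* KO tags (ratio 0.927, 0.307 to 2.93), and the reads, 2057 and 104, were higher in WT. The interval includes both 1 and the ratio of all hairpins outside exons.

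Mir27a, a member of the mir-23a cluster, had 1 tag in WT replicate 3 and 2, 1 and 1 in the *Mbnl1* KO replicates (ratio 2.88, 0.285 to 142). All 5 spanned positions 56 to 76 exactly, the whole of miR-27a-3p. Mir34a, a target of p53, had 0 WT tags and 2, 1 and 2 *Mbnl1* KO tags. They began at position 20 or 21 and ended at position 41, the last base of miR-34a-5p. The *Mbnl1* KO level was 10.5 tags per 1000000, the limit that 0 WT tags allow is 8.73, and the interval of the ratio begins at 0.661. Scaled counts did not overlap between genotypes at either hairpin, but at Mir27a this carries no weight. With a single 5′ end a WT replicate could give at most 1 tag, and WT replicate 3 and *Mbnl1* KO replicates 2 and 3 had 1 tag each, so they were ordered by library size alone. At both hairpins the interval of the ratio includes 1. All 5 Mir34a tags were in the second pass of the *Mbnl1* KO table.

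**Figure D2:**
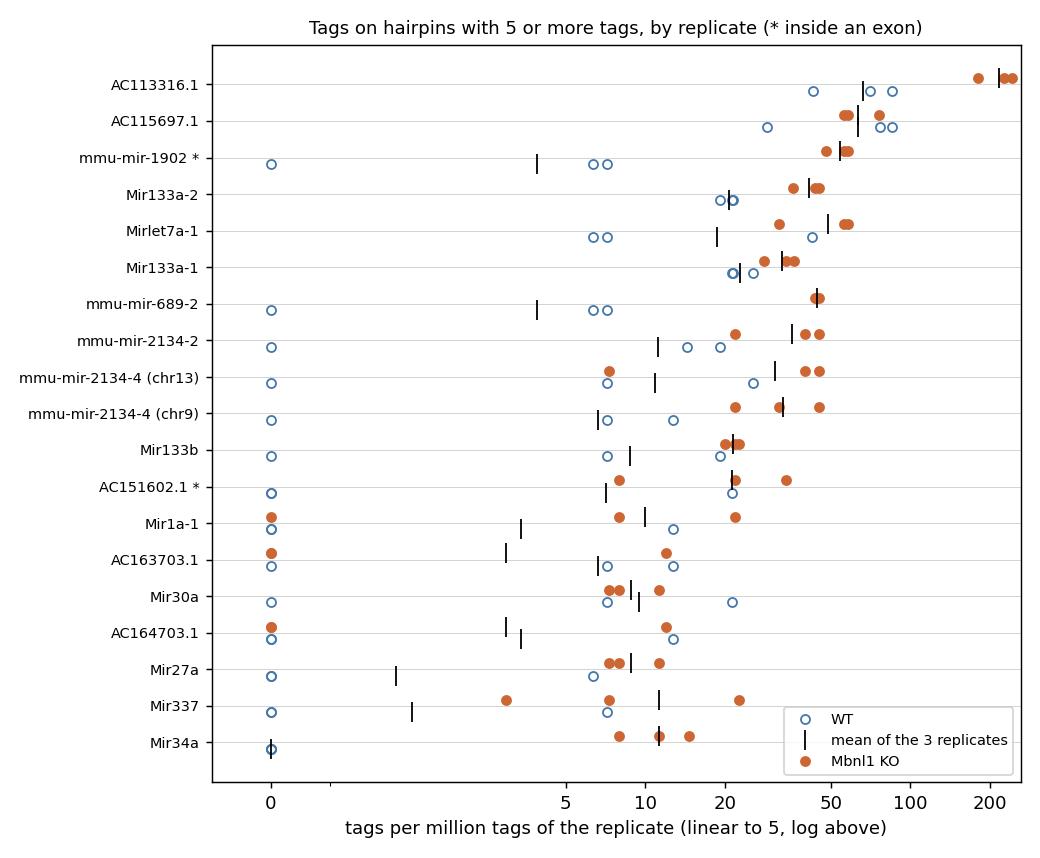
Tags per 1000000 tags of the replicate (linear to 5, log above) at the 19 hairpins with 5 or more tags, with WT (open blue) and Mbnl1 KO replicates (filled orange) as circles and their means as black ticks. The Mbnl1 KO circles of AC113316.1 lie at 180 to 241 and its WT circles at 43.0 to 85.1, while at Mirlet7a-1 and AC115697.1 the circles of the genotypes overlap.

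The hairpins with the most tags were not those of known muscle microRNAs. Tag numbers are capped where 5′ ends are fixed, however, and the order differed in reads. AC113316.1 had 249 WT and 11910 *Mbnl1* KO reads and AC115697.1 133 and 729, against 3645 and 14880 at the Mir133a pair. AC113316.1 (chr5:147072579-147072660, plus strand), in an intron of the kinase gene Cdk8, had 4, 6 and 11 tags in the WT replicates and 45, 20 and 33 in the *Mbnl1* KO replicates. This was 85.1, 43.0 and 70.1 against 180, 225 and 241 tags per 1000000, without overlap, and the ratio was 3.36 (2.08 to 5.68). Its tags were not of mature length. The median length was 31 nt, 34 of 119 tags were 20 to 24 nt long, and the 5′ ends lay at 39 positions. At most 7 tags began at any position, but each replicate and pass can give only 1 there. Of the 119 tags, 93 lay on the 3′ arm and 45 matched 1 place in mm9, the others 2. AC115697.1 (chr7:137977951-137978037, plus strand) had 4, 4 and 12 tags in WT and 19, 5 and 8 in *Mbnl1* KO, with overlapping replicates and a ratio of 1.15 (0.640 to 2.13). There, 49 of 52 tags lay on the 5′ arm and a tag matched up to 5 places. The flanks held 2 WT and 7 *Mbnl1* KO tags beside AC113316.1 and 18 and 45 beside AC115697.1. The ratios moved with the processing. With tags of 19 to 25 nt only they were 1.67 (0.779 to 3.88) at AC113316.1 and 0.454 (0.198 to 1.01) at AC115697.1, and at the latter tags with a single genome match gave 4.57 (1.34 to 24.1).

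A further group were 5 hairpins of 57 nt, mmu-mir-689-2, mmu-mir-2134-2, both copies of mmu-mir-2134-4 and AC163703.1, which had nearly 1 sequence. Against mmu-mir-689-2 (chr16:11144218-11144274, plus strand) the others had 0, 0, 1 and 4 mismatches. This sequence and that of AC113316.1 are printed, with the same use of capitals, since tags over them were GC-rich and mostly shared between loci.
mmu-mir-689-2: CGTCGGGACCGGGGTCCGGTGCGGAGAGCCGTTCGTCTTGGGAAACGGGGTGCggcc
AC113316.1: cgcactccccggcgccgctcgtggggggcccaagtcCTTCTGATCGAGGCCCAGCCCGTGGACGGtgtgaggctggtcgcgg
Together the 5 hairpins had 0, 6 and 12 tags in the WT replicates and 42, 16 and 13 in the *Mbnl1* KO replicates (ratio 2.84, 1.68 to 5.07). Without WT replicate 3 the ratio was 4.63 (2.03 to 13.0). Their reads numbered 65 in WT and 2544 in *Mbnl1* KO. Only 7 of their 89 tags matched a single place in mm9, and others matched up to 6. The GC content of the tags was 67.8% here, 72.8% at AC113316.1 and 72.7% at AC115697.1, against 51.8% at hairpins outside exons with a RefSeq entry. No ribosomal RNA reference was used here, and whether such tags come from abundant structural RNA was not tested.

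For each hairpin with 5 or more tags the ratio was set against a 2-fold limit. Outside exons 9 of 17 (52.9%) were counted at a ratio of at least 2 and 0 at a ratio of at most 0.5, while of the other genes with at least 5 tags 39.9% and 10.7% were. The 9 were AC113316.1, let-7a-1, Mir27a, Mir34a, Mir337 and 4 of the 57 nt hairpins, which share their sequence and are not independent. Mir34a was counted because it had 0 WT tags. With 0 read as up to 3 tags its ratio is at least 1.20, so it is not shown to reach 2. All *Mbnl1* KO replicates lay above all WT replicates at 9 of the 17 hairpins (52.9%) and at 30.9% of the other genes. These 9 include Mir27a and Mir133b, where tag numbers were capped, both Mir133a hairpins, whose tags match each other's place, and 3 identical 57 nt hairpins, so the shares cannot be read as an excess. The interval of the ratio lay above 1 at 4 hairpins, AC113316.1, let-7a-1, mmu-mir-689-2 and the chromosome 9 copy of mmu-mir-2134-4. The median ratio was 2.16. The lowest ratios belonged to the 57 nt hairpin AC163703.1 (3 tags in each genotype, 0.721, 0.0966 to 5.38) and to AC164703.1, whose 2 WT and 3 *Mbnl1* KO tags were single-base tags with 23 to 200 genome matches (1.08, 0.124 to 12.9). Without single-base tags 5 of the hairpins reached 2, and among tags of at least 2 reads 3 did. The share of the other genes was not computed for these settings, so these counts cannot be set against 39.9%.

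**Figure D3:**
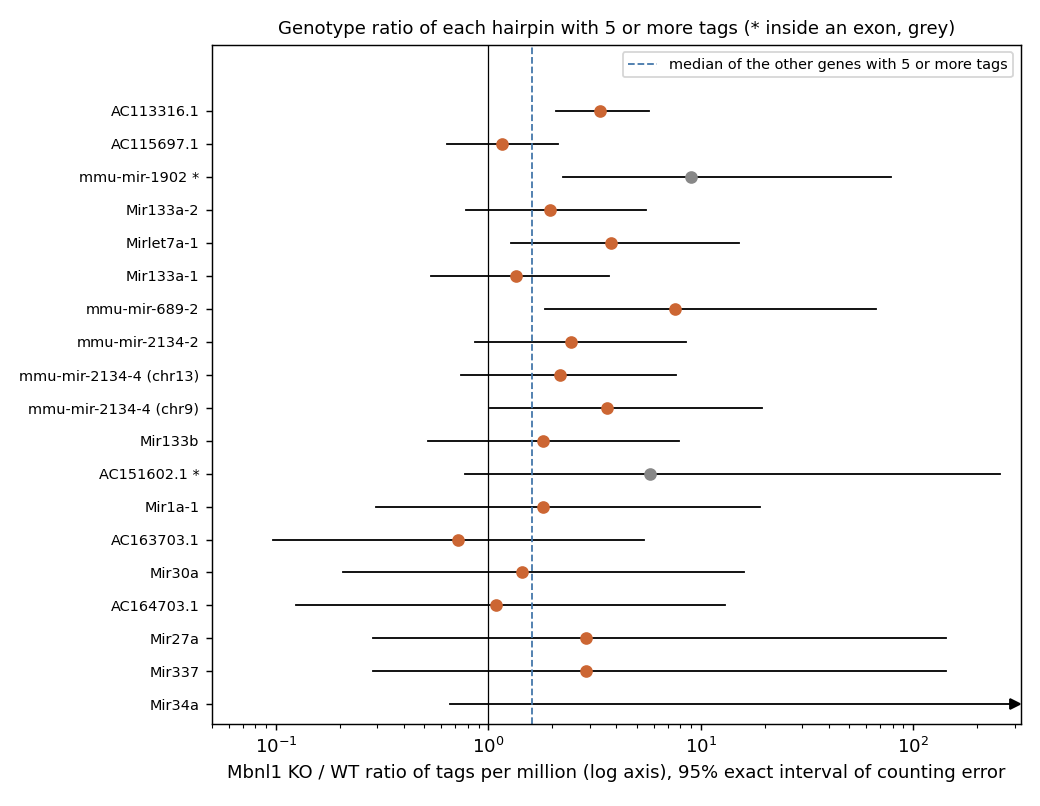
Ratio of Mbnl1 KO to WT tags per 1000000 (log axis) at the 19 hairpins with 5 or more tags, with points for the ratio and lines for the exact 95% interval (an arrow marks an interval without an upper end, and Mir34a has no point because it had 0 WT tags). Points mostly lie right of 1 and around the dashed line at 1.60, the median of the other genes, and the intervals are wide except at AC113316.1 and AC115697.1.

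Hairpins inside exons of other genes held 10 WT and 64 *Mbnl1* KO tags (ratio 4.61, 2.35 to 10.1), with 21.3, 28.7 and 31.9 tags per 1000000 in the WT replicates and 108, 225 and 124 in the *Mbnl1* KO replicates, without overlap. In the first pass of the *Mbnl1* KO table alone the ratio was 1.48 (0.552 to 3.96), and among tags of at least 2 reads it was 2.46 (0.956 to 8.08), both with intervals that include 1. Within this set mmu-mir-1902, in an exon of the kinase gene Hipk3 (chr2:104269018-104269097, minus strand), gave 2 and 25 of the tags. Its replicates had 0, 1 and 1 tags in WT and 12, 5 and 8 in *Mbnl1* KO (ratio 9.01, 2.25 to 78.5), and its reads numbered 45 and 4227. Tags ran from upstream of the hairpin to beyond its end, 5 of the 27 started within 1 nt of the mature 5′ end, and the flanks held a further 4 WT and 53 *Mbnl1* KO tags. AC151602.1, in an exon of the ferritin gene Ftl1, had 1, 0 and 0 tags in WT and 2, 3 and 3 in *Mbnl1* KO (ratio 5.77, 0.773 to 255.9), with all tags on the 3′ arm and reaching past the hairpin's end. At the 7 exonic hairpins with both mature strands placed, all 12 tags started within 1 nt of a mature 5′ end. They were Mir26a-2, Mir101a, Mir19b-1, Mir22, Mir125a, Mir196b and Mir29c, with 1 WT and 11 *Mbnl1* KO tags between them. Of the 12 tags, 8 matched a single place in mm9.

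Tag length followed the kind of hairpin. Of the tags on RefSeq-matched hairpins outside exons, 16 of 16 in WT and 64 of 72 in *Mbnl1* KO (88.9%, 79.3 to 95.1) were 20 to 24 nt long and none reached 30 nt. Over all tags, 50.4% of WT and 54.2% of *Mbnl1* KO tags had that length. Over all hairpins outside exons the share was 72.3% in WT (63.1 to 80.4) and 51.4% in *Mbnl1* KO (46.0 to 56.8). The share was also lower in *Mbnl1* KO than in WT in each of the following sets of hairpins, without a test. At AC113316.1 the shares were 10 of 21 and 24 of 98, at AC115697.1 14 of 20 and 7 of 32, and at the 57 nt hairpins 15 of 18 and 30 of 71. The hairpins named Mir, those in exons included, had 40 of 41 WT and 114 of 132 *Mbnl1* KO tags of that length.

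**Figure D4:**
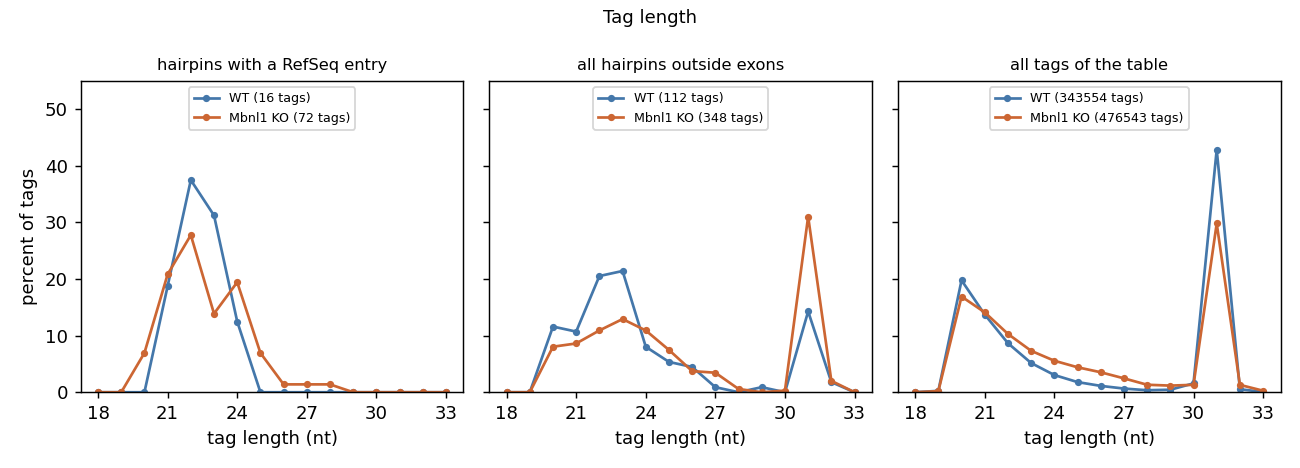
Percent of tags at each length in nt for hairpins outside exons with a RefSeq entry (left), all hairpins outside exons (middle) and all tags of the tables (right), in WT (blue) and Mbnl1 KO muscle (orange). Tags of RefSeq-matched hairpins peak at 22 nt and none is 30 nt or longer, while the other panels also peak at 31 nt.

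The 5′ arm held 30.4% of WT (22.0 to 39.8) and 31.6% of *Mbnl1* KO tags (26.8 to 36.8) at hairpins outside exons, so the intervals of the genotypes overlap. Of these 460 tags, 119 were at AC113316.1, 52 at AC115697.1 and 89 at the 57 nt hairpins, so the share mostly describes those loci. At RefSeq-matched hairpins outside exons the 5′ arm held 4 of 16 WT and 22 of 72 *Mbnl1* KO tags. Tags of RefSeq-matched hairpins outside exons ended on a pyrimidine, after which RNase A cuts, in 16 of 16 cases in WT and 63 of 72 (87.5%, 77.6 to 94.1) in *Mbnl1* KO muscle. Many of these tags shared an end, 24 at let-7a-1, all 14 at Mir133b and all 7 at Mir1a-1. They are therefore not independent, and the interval is too narrow. Over all tags the pyrimidine share was 40.2% and 57.9%, and without single-base tags 56.6% and 62.1%. Tags of RefSeq-matched hairpins also rested on more reads, with 62.5% of WT and 63.9% of *Mbnl1* KO tags on at least 2 reads against 20.95% and 40.5% of all tags.

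The YGCY motif was about as frequent in tagged as in all hairpins. The letters (C or T, then GC, then C or T), searched on the sense strand, occurred in 62.8% of the 86 tagged hairpins (51.7 to 73.0) and in 65.0% of all 1577. Between the mature strands they occurred in 1 of 23 tagged hairpins (4.35%, 0.110 to 21.9) and in 17.6% of the 290 hairpins with both strands placed. Mir1a-1, Mir133a-1 and Mir133a-2 are not among the 23. Both strands were not placed there, so their loops were not searched. Neither the let-7a-1 hairpin nor any of its 25 tags held the motif. Within tags the motif was present in 24 of 119 at AC113316.1 and in 19.1% of the 460 tags on hairpins outside exons.

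Hairpins known from other cell types had few tags or none. Mir143 and Mir145, known from smooth muscle, had 0 WT tags and 2 and 3 *Mbnl1* KO tags. Mir126 of endothelium, Mir144 and Mir451 of erythroid cells, Mir142, Mir223, Mir150 and Mir155 of immune cells, the liver hairpin Mir122a and the 3 brain hairpins annotated by name had no tag in either table.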

How the data were processed

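The authors aligned the reads to mm9 (BWA, per the labels), collapsed them to unique tags and deposited 1 merged table per genotype, which holds each tag's position, strand, length and a whole-number count of reads. Colours were read as replicates. In the *Mbnl1* KO table they match the study's replicate totals, and in the WT table this is an inference. Tags overlapping a hairpin on its strand were counted, assigned to an arm by their midpoint and, where RefSeq (GRCm38.p6) mature sequences matched the mm9 hairpin exactly (both strands in 290 of 412), placed relative to them. Exact genome matches were counted up to 200. Ratios were given for hairpins with at least 5 tags, the rule for naming them, and the listed muscle, let-7 and cell type hairpins were described in full. Levels are tags per 1000000 tags, with Clopper-Pearson 95% intervals, and a count of 0 was read as up to 3 tags. The intervals treat tags as independent, although tags of a hairpin often share an end. No count model was fitted, because the merged tables gave no replicates until colours were read and the counts per hairpin are small. Scripts (Python 3.11.15, numpy 2.4.6, pandas 2.3.3, scipy 1.17.1, samtools 1.23.1, matplotlib 3.10.9) were tested on simulated data. Members and lists were chosen with earlier results of these data known. Alternatives were other scales, tag lengths, read minimums, genome matches, passes and leaving out each replicate.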

Additional observations from a re-analysis of the deposited data

How the results depend on the processing

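The ratio of hairpins outside exons, 2.24, was 3.11 in raw tag numbers, 1.58 without single-base tags (also with chromosome M left out), 1.51 with 19 to 25 nt tags, 1.27 with tags of at least 2 reads, 2.88 with 1 genome match, 1.74 in pass 1 and 0.928 in reads, where it reversed. Leaving out each replicate gave 1.89 to 2.90, the highest without WT replicate 3. The exonic ratio was 1.48 in pass 1 and 3.90 to 5.63 without each replicate. Tagged hairpins numbered 56 with tags of at least 2 reads. The share of 20 to 24 nt tags was 85.0% in WT and 57.4% in *Mbnl1* KO with at least 2 reads, and 52.7% and 32.5% for 21 to 23 nt. The *Mbnl1* KO share at mature 5′ ends was 85.7% without let-7a-1, and its 5′ arm share 48.6% by overlap with a mature strand. Hairpins with a ratio of at least 2, 9 as reported, include Mir34a with 0 WT tags, whose ratio is only known to be at least 1.20. They numbered 5 with 19 to 25 nt tags, 3 with at least 2 reads, 5 without single-base tags and 5 in pass 1. Those at 0.5 or less, 0 as reported, numbered 1, 1, 1 and 3, 1 in pass 2, and 0 to 2 without each replicate (2 without *Mbnl1* KO replicate 1, AC163703.1 and AC164703.1). Shares of the other genes were not computed under these settings. RefSeq-matched hairpins (3.24) gave 0.924 in pass 1 and 1.72 with at least 2 reads, symbol hairpins without an entry (2.20) 0.329 in reads and 1.10 with at least 2 reads, and clone-named ones (1.99) 1.23 with at least 2 reads and 1.44 without single-base tags. Without a replicate in turn, these ratios lay within 2.57 to 4.03, 2.05 to 2.69 and 1.61 to 2.71. The ratios of Mir133b (3.92 at most), Mir30a (0.783 to 2.49), Mir1a-1 (1.01 at least), Mir27a (1.71 at least), Mir337 (1.57 to 4.56), AC151602.1 (3.13 to 9.12) and both mmu-mir-2134-4 copies (5.87 at most) moved over 1.5 times. Hairpins with a ratio of at least 2 that reversed were the mmu-mir-2134-4 copies on chromosome 13 (0.771, 19 to 25 nt) and chromosome 9 (0.622, at least 2 reads) and, in pass 1, let-7a-1 (0.370), Mir337 (0) and AC151602.1 (0). Among lower ratios, AC115697.1 (1.15) was 0.454 with 19 to 25 nt tags and 0.577 with at least 2 reads. In reads AC115697.1 was 0.564, Mir133b (1.80) 0.602, Mir1a-1 (1.80) 0.0392 and Mir30a (1.44) 0.0263. AC113316.1, Mir27a, let-7a-1 and mmu-mir-1902 stayed above 1 in reads. The causes were not tested. Settings by replicate, pass and read were chosen after seeing the data. No paired analysis was possible because no test between genotypes was made and the colours carry no pairing.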
